A study of Mus musculus with 16 samples.

Results

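Solute carriers are the membrane proteins that move nutrients, ions, metals and metabolites into and out of cells and organelles. Their expressed members were followed here across 8 groups of mouse bone marrow derived macrophages. A member is a gene whose symbol has the form of a solute carrier family and member number, and whose mean over the 16 libraries was at least 2 CPM (counts scaled by library size). The rule leaves out 10 carriers of iron, lactate, arginine, cystine and glucose, which are not described. This left 155 of the 335 solute carrier genes in the table of 22287 genes, while 170 lay below the level and 54 of those had no count. The mean level chose the members and is given as a description only. The members just inside the limit were Slc1a4 at 2.35, Slc9a4 at 2.47 and Slc18a2 at 2.53 CPM, and the genes just outside it were Slc22a15 at 1.98, Slc9a2 at 1.93 and Slc22a23 at 1.86 CPM.

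Bone marrow of C57BL/6J mice aged 8 weeks was grown over 7 days in medium holding either GM-CSF at 20 ng/ml (the GM groups) or M-CSF at 50 ng/ml (the M groups), on tissue culture treated (TC) or untreated (noTC) dishes. The cells then received vehicle or 100 ng/ml LPS, an agonist of toll-like receptor 4, for 3 h. The 8 groups, named for growth factor, dish and LPS, held 2 replicates each. The labels name no genetic change and no sort in any group, and they do not tie replicates of different groups to one mouse.

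As background, solute carriers are numbered by family, and each family shares a fold and usually a type of substrate. Some sit in the plasma membrane, where they take up amino acids, sugars, choline or nucleosides. Others sit in lysosomes, where macrophages release the products of what they have engulfed, and the Slc25 family sits mostly in the inner membrane of mitochondria. The 155 members belonged to 42 families and were grouped by substrate into 10 classes: 34 mitochondrial carriers, 23 carriers of amino acids and peptides, 22 of metals, 22 of inorganic ions and pH, 13 of carboxylates and other organic ions, 11 of sugars and sugar phosphates, 11 of lipids, choline and osmolytes, 10 of vitamins and heme, 5 of nucleotide sugars and 4 of nucleosides and nucleobases.

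Total counts per library lay between 17527806 and 31458368, so that 3 counts correspond to 0.0954 to 0.171 CPM, a limit that covers counting error only. The summed level of 8 macrophage markers was 37900 to 47800 CPM in GM and 20500 to 30300 CPM in M. Those of 10 heart muscle markers were 46.9 and 24.9 CPM in GM-TC and 64.9 and 38.2 CPM in M-TC but at most 0.872 CPM in the other 12 libraries, and their part in the results was not tested. The 6 neutrophil markers summed to 7.62 to 22.8 CPM in GM and to at most 0.513 CPM in M, with Mpo, Elane and Ly6g at 0 in all M groups, and the 5 dendritic cell markers to 7.07 to 16.6 CPM in GM against 0.472 to 3.34 CPM in M. The 3 endothelial markers summed to 12.2 to 14.7 CPM at steady state and 44.0 to 117 CPM upon LPS challenge. Lists of erythroid, mast cell and lymphocyte markers stayed at or under 1.9 CPM and 5 fibroblast markers at or under 16.7 CPM. The mast cell markers summed to 0.656 to 1.9 CPM in GM and to at most 0.0998 CPM in M. In such bulk libraries fewer cells of a type and less RNA per cell cannot be told apart.

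Levels are given below as CPM scaled with edgeR's TMM factors, with the 2 replicates in order. Differences come from edgeR's quasi-likelihood test over 12514 genes, all 155 members among them. A member is called, and said to have risen or fallen, when its adjusted p was under 0.05 and its fold change above 2. A permutation test of 2 libraries against 2 cannot give an exact two-sided p under 0.333, so single values were not tested that way.

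Most members were present in every culture. Of the 155 members, 133 had a group mean of 2 CPM or more in all 8 groups, and 22 fell under it in at least 1 group. The highest group mean was 2.69 times the lowest in the median member, under 2 times in 42 members and over 10 times in 19. In 95 members at least 1 of 12 comparisons of 2 groups was called and in 60 none, among them 17 of the 34 mitochondrial carriers, 11 of the 22 metal carriers and 4 of the 5 carriers of nucleotide sugars. LPS comparisons called 72 members, comparisons of growth factors 58 and comparisons of dishes 5. A member near the limit that is high in 1 group only had to differ to be included, so these counts describe the members and support nothing about them. Shares of all genes called in any comparison were not counted beside them. The limit was reached through the GM libraries alone by 11 members (Slc1a2, Slc4a4, Slc6a4, Slc6a13, Slc9a4, Slc18a1, Slc18a2, Slc27a6, Slc36a2, Slc39a2 and Slc52a3, with a mean under 2 CPM in M) and through the M libraries alone by Slc1a4 and Slc26a11. It was reached through the LPS libraries alone by Slc1a2 and Slc4a4 and through the steady state libraries alone by 9 (Slc1a4, Slc9a4, Slc17a9, Slc18a2, Slc25a14, Slc25a35, Slc26a11, Slc27a6 and Slc37a1). Differences of these members in that direction are what the limit required and are given as descriptions.

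Per kilobase of exon, the only scale on which levels of different genes are compared here, Slc25a5, which exchanges ADP and ATP across the inner mitochondrial membrane, led at 199 CPM per kilobase. The taurine carrier Slc6a6 followed at 178, the lysosomal hexose carrier Slc2a6 at 125 and the lysosomal histidine and peptide carrier Slc15a3 at 87.0. After them came the betaine carrier Slc6a12 at 78.8, the endolysosomal heme carrier Slc48a1 at 76.0, the zinc importer Slc39a1 at 72.3 and Slc3a2, the heavy chain shared by several amino acid exchangers, at 62.2. Slc25a5 and Slc25a3 have processed copies in the genome, among which the authors' counting could split reads, so their levels are uncertain. Of members described below Slc1a2, at 0.394, and Slc4a4, at 0.337, lay far under these.

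Slc6a6 had the highest mean CPM of the members, and its highest group mean was 1.503 times its lowest. At steady state the GM libraries lay at 1322 and 1146 CPM on TC and 1298 and 1252 CPM on noTC dishes, the M libraries at 1705 and 1723 and at 1664 and 1689 CPM. With LPS the GM libraries lay at 1227 and 1241 CPM (TC) and 1255 and 1319 CPM (noTC), the M libraries at 1897 and 1812 and at 1814 and 1747 CPM. All M libraries lay above all GM libraries, by under 2-fold. LPS gave log2 fold changes of 8.4e-05 (SE 0.055) in GM-TC and 0.11 (SE 0.055, adjusted p = 0.067 from edgeR) in M-TC, and of -0.48 and -0.71 with library size in place of TMM.

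Upon LPS challenge, 21 members rose and 17 fell in GM-TC, beside 13.4% and 12.7% of all genes tested. In GM-noTC 20 rose and 16 fell, beside 13.1% and 12.6%. In M-TC 33 rose and 29 fell, beside 17.3% and 18.5%, and in M-noTC 31 rose and 23 fell, beside 15.9% and 16.3%. These are 13.5% (higher) and 11% (lower) of the members for GM-TC and 21.3% and 18.7% for M-TC, near the shares of all genes. Marker sums given above differed with LPS too. The endothelial and macrophage ones were higher in all 4 comparisons, and the heart muscle ones went from 24.9 to 64.9 CPM to at most 0.872 CPM on TC dishes. The dendritic cell ones in M went from 0.472 to 0.861 CPM to 2.21 to 3.34 CPM, and in GM-TC from 7.07 and 8.82 to 13.5 and 12.9 CPM. In GM the neutrophil ones went from 7.62 and 10.4 to 16.5 and 22.3 CPM on TC dishes. On noTC dishes they went from 14.6 and 12.6 to 22.8 and 17.6 CPM. The mast cell ones in GM were higher with LPS on both dishes. Their part was not tested. The median log2 fold change of the members in M cells was -0.20 on TC and -0.15 on noTC dishes (all genes tested -0.01 on both), and in GM cells -0.18 on TC and -0.20 on noTC dishes (all genes -0.05 and -0.03).

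The balance of higher and lower calls depended on the scaling. With library size in place of TMM the median of all genes itself lay in M cells at -0.83 (TC) and -0.73 (noTC) and in GM cells at -0.53 (TC) and -0.54 (noTC). Then 20 members were higher and 78 lower for M-TC, 16 higher and 65 lower for M-noTC, 14 higher and 49 lower for GM-TC, and 11 higher and 50 lower for GM-noTC. Among members not called, 30 of 93 changed sign under it in M-TC and 28 of 117 in GM-TC, so the sign of a small change depends on the scaling, and changes below are relative to the bulk of genes.

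**Figure D1:**
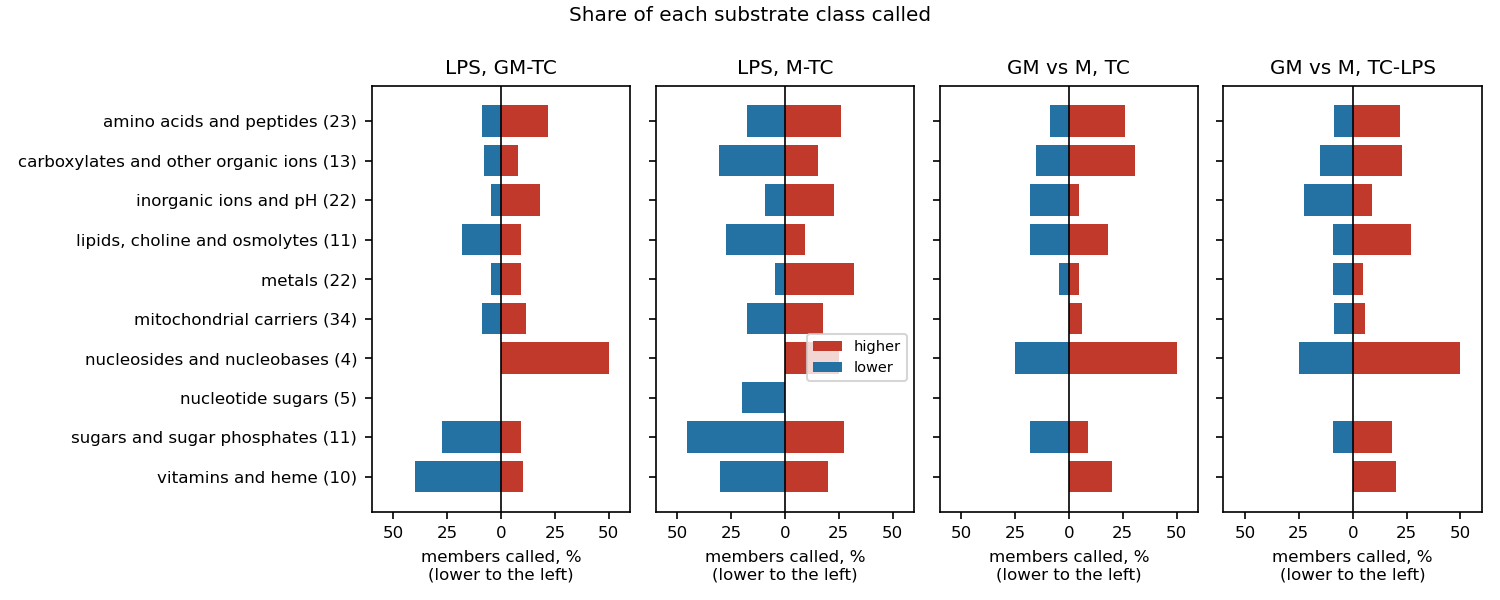
Share of the members of each substrate class (number of members in brackets) that were called higher (red, to the right) or lower (blue, to the left), in percent, for LPS in GM-TC and M-TC and for GM against M on TC dishes without and with LPS. Among metal carriers 7 of 22 were called higher with LPS in M-TC and 2 of 22 in GM-TC (beside 17.3% and 13.4% of all genes).

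Called in the same direction in all 4 LPS comparisons were 27 members, of which 17 rose and 10 fell. These are 11% and 6.45% of the members, and over all genes tested the shares were 9.45% and 7.16%. The 17 that rose hold 4 carriers of amino acids and peptides (Slc15a2, Slc15a3, Slc7a8 and Slc1a2), 4 mitochondrial carriers (Slc25a22, Slc25a25, Slc25a28 and Slc25a37), 3 of inorganic ions and pH (Slc4a4, Slc4a7 and Slc12a4), 2 of zinc (Slc30a4 and Slc30a6), and Slc2a6, Slc16a10, Slc44a1 and Slc23a2. The 10 that fell were Slc36a1 and Slc43a2 for amino acids, Slc46a3, Slc5a6 and Slc19a2 for vitamins and related solutes, Slc45a4 and Slc37a1 for sugars and sugar phosphates, Slc5a3 and Slc27a6 for osmolytes and lipids, and the sulfate carrier Slc26a11. The limit was reached through the LPS libraries alone by Slc1a2 and Slc4a4. Slc26a11, Slc27a6 and Slc37a1 reached it through the steady state libraries alone, so the shares are descriptions.

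**Figure D2:**
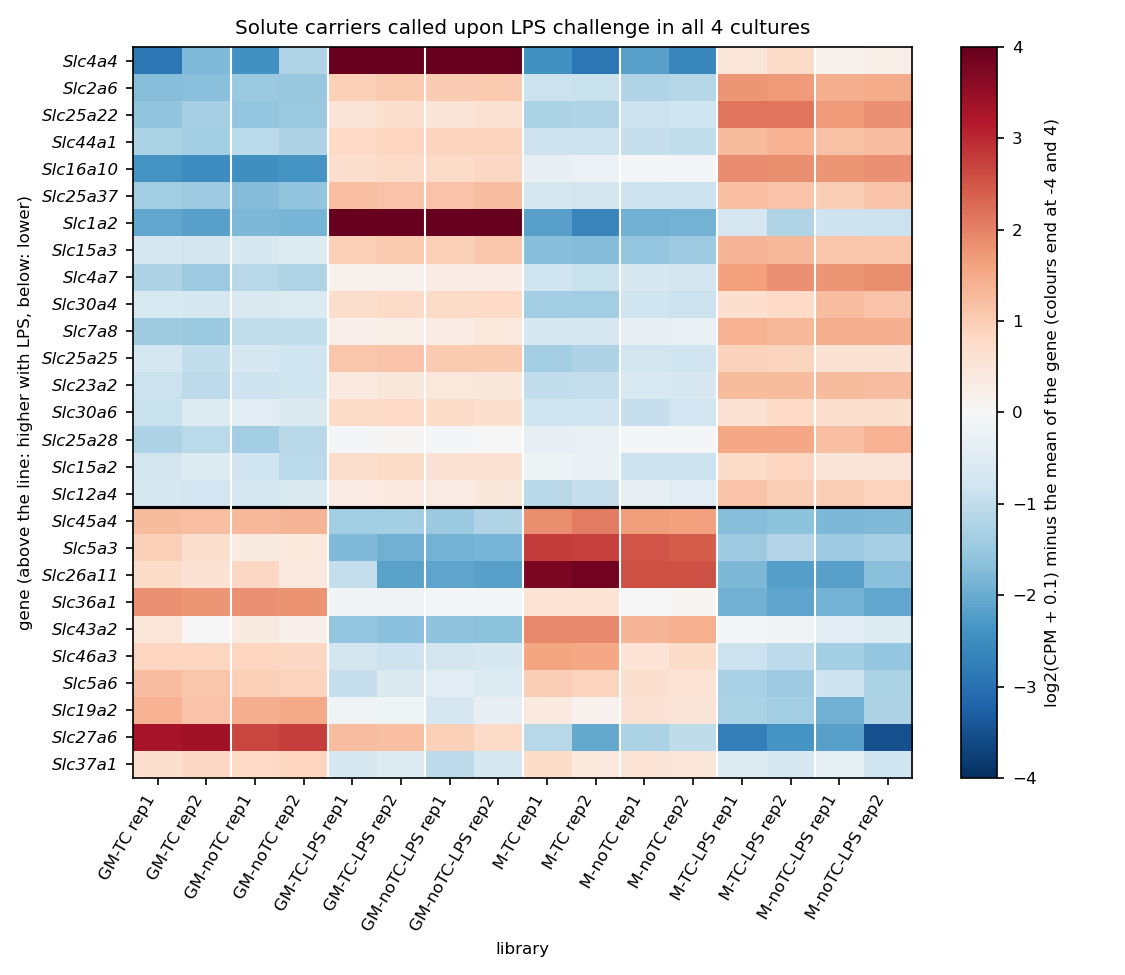
Level of the 27 members called in all 4 LPS comparisons in each of the 16 libraries, as log2(CPM + 0.1) minus the mean of the gene over libraries (colours end at -4 and 4). The 17 members above the line are higher, and the 10 below it lower, in the LPS libraries of both growth factors, and Slc4a4 and Slc1a2 are darkest in the GM libraries with LPS.

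Slc2a6, the carrier of hexoses found in lysosomes of macrophages, led the sugar carriers. GM cells held 83.1 and 84.6 CPM on TC and 97.1 and 95.8 CPM on noTC dishes, and with LPS 528 and 561 CPM (TC) and 544 and 557 CPM (noTC). M cells held 149.9 and 146.9 CPM (TC) and 117.8 and 122.9 CPM (noTC), and with LPS 915 and 893 CPM (TC) and 735 and 767 CPM (noTC). No LPS library overlapped a steady state library, and the 4 log2 fold changes lay between 2.51 and 2.70 (GM-TC: 2.70, SE 0.052, adjusted p = 1.9e-21 from edgeR).

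Slc45a4, described as a sugar carrier coupled to protons, moved the other way. It had 53.7 and 59.98 CPM (TC) and 46.6 and 45.9 CPM (noTC) in M and 35.3 and 34.0 CPM (TC) and 35.7 and 37.2 CPM (noTC) in GM cells. Upon LPS challenge every library lay between 4.11 and 6.30 CPM. The log2 fold changes were -2.64 (SE 0.099) in GM-TC and -3.66 (SE 0.10, adjusted p = 5.2e-19 from edgeR) in M-TC. Of the 11 carriers of sugars and sugar phosphates, 1 rose and 3 fell in each GM comparison, 3 rose and 5 fell in M-TC and 3 rose and 3 fell in M-noTC. Beside them, 13.4% of all genes tested rose and 12.7% fell in GM-TC, and 13.1% and 12.6% in GM-noTC. The shares were 17.3% and 18.5% in M-TC and 15.9% and 16.3% in M-noTC. Slc2a3, a high affinity glucose carrier, had log2 fold changes of 0.11 in GM-TC (adjusted p = 0.52 from edgeR; -0.37 with library size) and -0.98 in M-TC (adjusted p = 1.2e-06), the second just short of 2-fold.

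Among carriers of amino acids and peptides, Slc15a3 had 225.7 and 213.2 CPM in GM cells on TC and 231.6 and 251.8 CPM on noTC dishes, and after LPS 692 and 743 CPM (TC) and 696 and 764 CPM (noTC). M libraries had 109.7 and 108.5 CPM on TC and 123.3 and 130.0 CPM on noTC dishes, and after LPS 918 and 883 CPM (TC) and 777 and 780 CPM (noTC). M libraries lay below all GM libraries at steady state and above all GM libraries with LPS. The log2 fold change was 1.71 (SE 0.058) in GM-TC and 3.04 (SE 0.062) in M-TC, and the difference of -1.34 (SE 0.082) passed the test (adjusted p = 1.5e-11 from edgeR). Its relative Slc15a4, also of the endolysosome, was not called, at -0.80 for GM-TC and -0.63 for M-TC on the log2 scale.

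Slc3a2, which pairs with light chains such as Slc7a5 and Slc7a8, had 95.3 and 111.4 CPM without and 464 and 463 CPM with LPS in GM on TC dishes, against 97.2 and 98.97 CPM without and 255 and 233 CPM with LPS in M. The light chain Slc7a8 had 43.3 and 42.2 CPM without and 136 and 142 CPM with LPS in GM on TC dishes, against 71.6 and 73.1 CPM without and 305 and 297 CPM with LPS in M. Both rose in GM-TC, by 2.16 (SE 0.064) and 1.70 (SE 0.056) on the log2 scale, and in M-TC, by 1.31 (SE 0.064) and 2.05 (SE 0.053). With TMM scaling Slc3a2 rose more in GM cells and Slc7a8 more in M cells (interactions on TC 0.847 and -0.355, adjusted p = 7.6e-08 and 0.00064 from edgeR). With library size in place of TMM the median of all genes lay lower in M-TC (-0.83) than in GM-TC (-0.53). An interaction as small as that of Slc7a8 can therefore depend on the scaling.

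The light chain Slc7a5, which exchanges large neutral amino acids, was on TC dishes, with TMM scaling, the only member called with LPS in M cells whose value in GM cells had the opposite sign. At steady state the GM libraries lay at 20.9 and 19.9 CPM on TC and 23.6 and 22.4 CPM on noTC dishes, the M libraries at 6.78 and 7.63 and at 15.2 and 14.7 CPM. With LPS the GM libraries lay at 10.2 and 11.5 CPM (TC) and 13.6 and 12.6 CPM (noTC), the M libraries at 19.8 and 18.3 and at 36.9 and 32.9 CPM. The log2 fold change with LPS was -0.90 (SE 0.099) in GM-TC, short of 2-fold, and 1.40 (SE 0.11, adjusted p = 5.0e-11 from edgeR) in M-TC. With library size these were -1.38 and 0.58, of which the first and not the second passed 2-fold. Their difference was -2.31 (SE 0.14, adjusted p = 2.2e-11 from edgeR) on TC and -2.04 (SE 0.13, adjusted p = 2.3e-11) on noTC dishes.

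Of the other carriers of neutral amino acids, the glutamine carrier Slc38a2 fell in M-TC (log2 fold change -1.59, SE 0.056, adjusted p = 4.6e-17 from edgeR) and was at -0.64 in GM-TC. Slc1a5 and Slc38a1, which also carry glutamine, were not called in any LPS comparison. Slc43a2, an efflux carrier of large neutral amino acids, had 139.5 and 102.0 CPM without and 34.5 and 31.2 CPM with LPS in GM on TC dishes, against 380.2 and 380.1 CPM without and 95.3 and 91.2 CPM with LPS in M. It fell by 1.87 to 2.03 on the log2 scale in the 4 comparisons.

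Slc36a1, which lets amino acids out of lysosomes together with protons, also fell. GM cells held 131.9 and 125.2 CPM on TC and 130.2 and 127.6 CPM on noTC dishes, and with LPS 34.1 and 32.9 CPM (TC) and 34.5 and 35.7 CPM (noTC). M cells held 54.1 and 53.8 CPM (TC) and 36.0 and 38.4 CPM (noTC), and with LPS 9.60 and 8.49 CPM (TC) and 9.75 and 8.63 CPM (noTC). LPS and steady state libraries of one growth factor did not overlap, and the 4 log2 fold changes lay between -1.88 (SE 0.063) in GM-noTC and -2.57 (SE 0.081) in M-TC.

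The glutamate carrier Slc1a2, best known from astrocytes, was nearly absent at steady state. The libraries then held 1 and 1 (TC) and 2 and 2 counts (noTC) in GM, and 1 and 0 (TC) and 2 and 3 counts (noTC) in M. After LPS they held 399 and 529 (TC) and 387 and 390 counts (noTC) in GM but 6 and 3 (TC) and 5 and 5 counts (noTC) in M. The ratio of pooled counts per scaled depth was 507 in GM-TC (95% counting interval 140 to 4190) and 233 in GM-noTC (90.6 to 857), against 12.4 (1.72 to 545) in M-TC and 3.68 (1.15 to 13.7) in M-noTC. The 2 GM-TC-LPS libraries held 20.6 and 24.6 CPM and the 2 M-TC-LPS libraries 0.295 and 0.174 CPM. Its mean reached the limit only through the GM libraries with LPS, so these differences are a description with no test.

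Among carriers of inorganic ions, the sodium bicarbonate carrier Slc4a4 had a like pattern and reached the limit in the same way. On TC dishes it held 0 and 3 counts without and 290 and 269 with LPS in GM, against 1 and 0 without and 19 and 20 with LPS in M. The ratio was 203 (69.3 to 990) in GM-TC and 53.8 (9.11 to 2180) in M-TC. The related Slc4a7 rose in all 4 comparisons, by 1.51 (SE 0.074) in GM-TC and by 2.57 (SE 0.073) in M-TC on the log2 scale. The potassium chloride carrier Slc12a4 rose in all 4 comparisons, by 1.0 to 2.08.

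Slc26a11, a sulfate and anion carrier, had the lowest log2 fold change of the members in both M comparisons and in GM-noTC. It had 28.4 and 30.2 CPM (TC) and 11.9 and 12.1 CPM (noTC) in M and 3.33 and 2.98 CPM (TC) and 3.59 and 2.62 CPM (noTC) in GM cells. With LPS it had 0.492 and 0.349 CPM (TC) and 0.359 and 0.549 CPM (noTC) in M and 0.982 and 0.372 CPM (TC) and 0.379 and 0.365 CPM (noTC) in GM. All LPS libraries thus lay between 0.349 and 0.982 CPM, below every steady state library. The log2 fold change was -6.09 (SE 0.23) in M-TC and -2.24 (SE 0.29) in GM-TC, a description, since the steady state libraries alone brought its mean over the limit.

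The myo-inositol carrier Slc5a3, an osmolyte carrier, came next in M cells. It had 372.3 and 357.1 CPM (TC) and 306 and 288 CPM (noTC) in M and 104.4 and 83.6 CPM (TC) and 68.5 and 71.6 CPM (noTC) in GM cells. With LPS it had 19.7 and 23.5 CPM (TC) and 19.7 and 21.1 CPM (noTC) in M and 15.7 and 14.2 CPM (TC) and 14.4 and 14.8 CPM (noTC) in GM. M cells thus held more of it than GM cells at steady state (log2 difference -1.96, SE 0.080) and the gap was -0.53 (SE 0.11) with LPS. The falls were -2.65 (SE 0.099) in GM-TC and -4.08 (SE 0.094) in M-TC. In the same class the choline carrier Slc44a1 rose by 2.04 to 2.17 in all 4 comparisons, on TC dishes from 73.5 and 67.9 to 307 and 322 CPM in GM and from 100.2 and 97.8 to 429 and 461 CPM in M.

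**Figure D3:**
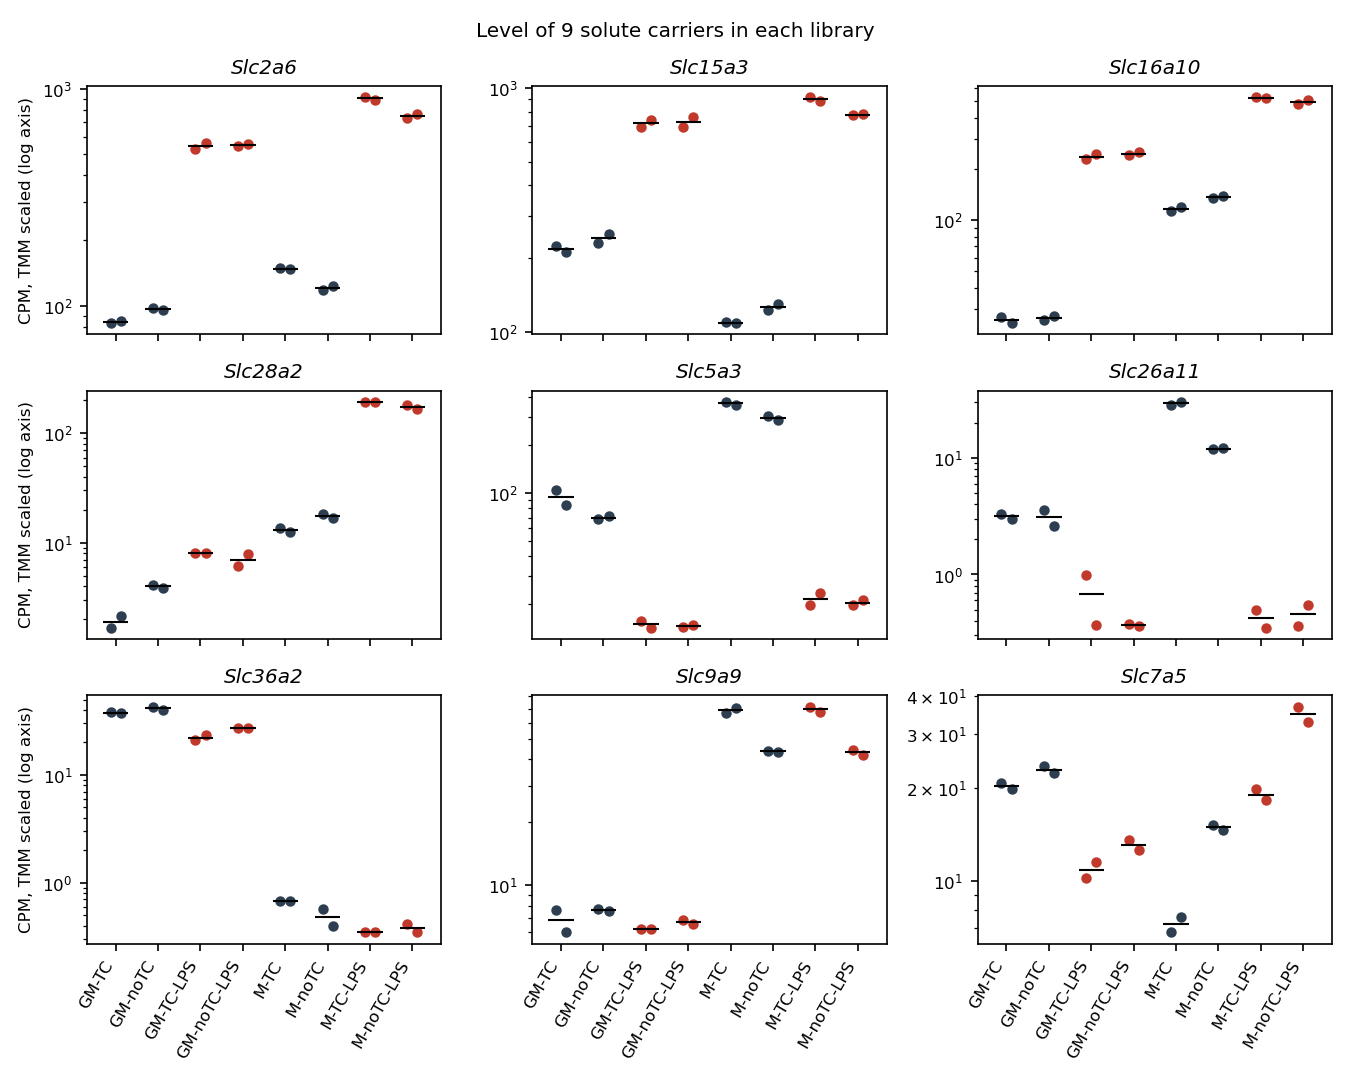
Level of 9 members in each library, as TMM scaled CPM on a log axis, with a point per library (dark without LPS, red with LPS) and a line at the group mean. Slc2a6, Slc15a3 and Slc16a10 are higher and Slc5a3 and Slc26a11 lower in all LPS groups, Slc36a2 is above 20 CPM in GM and under 1 CPM in M libraries, and Slc7a5 is lower with LPS in GM and higher with LPS in M.

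Slc16a10, which carries aromatic amino acids and thyroid hormone, had the highest log2 fold change in GM cells after Slc1a2 and Slc4a4. It is counted with its family among carboxylates and other organic ions, so the counts for amino acids and peptides leave it out. At steady state the GM libraries lay at 26.8 and 24.8 CPM on TC and 25.8 and 27.5 CPM on noTC dishes, the M libraries at 113.1 and 119.3 and at 134.2 and 138.7 CPM. With LPS the GM libraries lay at 228 and 243 CPM (TC) and 242 and 250.1 CPM (noTC), the M libraries at 528 and 519 and at 479 and 509 CPM. M libraries stayed above GM libraries in each state. The log2 fold change was 3.19 (SE 0.064) in GM-TC and 2.17 (SE 0.056) in M-TC, and the difference was 1.02 (SE 0.084, adjusted p = 1.7e-09 from edgeR).

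Of the 34 mitochondrial carriers, 4 rose and 3 fell in GM-TC (beside 13.4% and 12.7% of all genes tested). In M-TC 6 rose and 6 fell (beside 17.3% and 18.5%). Slc25a37 and Slc25a28, the mitoferrins that bring iron into mitochondria, both rose in all 4 comparisons. Slc25a37 went on TC dishes from 28.9 and 27.8 to 174 and 167 CPM in GM and from 49.1 and 45.6 to 173 and 168 CPM in M. The LPS libraries of both growth factors overlapped (log2 difference -0.0018, SE 0.062). Slc25a28 rose by 1.15 (SE 0.12) in GM-TC and 1.88 (SE 0.097) in M-TC.

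The glutamate carrier of mitochondria, Slc25a22, had 15.8 and 19.0 CPM in GM cells on TC and 16.4 and 16.96 CPM on noTC dishes, and after LPS 67.9 and 76.3 CPM (TC) and 67.9 and 72.6 CPM (noTC). M libraries had 19.9 and 20.7 CPM on TC and 26.1 and 27.4 CPM on noTC dishes, and after LPS 212.1 and 209.8 CPM (TC) and 154.9 and 169.8 CPM (noTC). The rise was larger in M-TC (3.38, SE 0.079) than in GM-TC (2.04, SE 0.083), with a difference of -1.33 (SE 0.12, adjusted p = 4.0e-09 from edgeR). Slc25a25, which exchanges ATP-Mg for phosphate, rose by 1.99 (SE 0.080) in GM-TC and 2.21 (SE 0.083) in M-TC. The 2 mitochondrial carriers with the highest level per kilobase were not called with LPS, Slc25a5 at -0.0015 (GM-TC) and 0.27 (M-TC) and Slc25a3, the phosphate carrier, at 0.20 and 0.54 on the log2 scale. With library size in place of TMM the M-TC values were -0.55 (Slc25a5) and -0.29 (Slc25a3), and that of Slc25a3 in GM-TC was -0.28.

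Of the 22 metal carriers, 2 rose and 1 fell in each GM comparison, whereas 7 rose and 1 fell in each M comparison, where more of all genes rose too (15.9% and 17.3%, beside 13.1% and 13.4% in GM). The 7 were Slc30a1, Slc30a4, Slc30a6, Slc31a1, Slc31a2, Slc39a1 and Slc39a2. The interaction of growth factor and LPS was called for 12 of the 22 on TC (54.5%, beside 41.1% of all genes) and 13 on noTC dishes (59.1%, beside 36.2%). Slc31a2, a copper carrier of endosomes and lysosomes, had 83.7 and 89.6 CPM without and 136 and 140 CPM with LPS in GM on TC dishes, against 46.5 and 47.1 CPM without and 216 and 221 CPM with LPS in M. It rose by 2.22 (SE 0.062) in M-TC and stayed under 2-fold in GM-TC (0.67, SE 0.060), a difference of -1.56 (SE 0.086, adjusted p = 2.6e-12 from edgeR). The zinc exporter Slc30a1 had 24.3 and 28.6 CPM without and 31.5 and 35.2 CPM with LPS in GM on TC dishes, against 18.5 and 17.9 CPM without and 40.8 and 44.7 CPM with LPS in M.

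The copper importer Slc31a1 had log2 fold changes of 0.48 (SE 0.051) in GM-TC and 1.36 (SE 0.051) in M-TC, and the zinc importer Slc39a1 of 0.70 (SE 0.056) and 1.19 (SE 0.056). Metallothioneins, the zinc and copper binding proteins Mt1 and Mt2, moved beside them. Mt2 rose by 3.00 (SE 0.092) in GM-TC and 5.56 (SE 0.12) in M-TC, and Mt1 by 1.31 (SE 0.078) and 2.15 (SE 0.086). The larger rises in M began from a lower level, since both genes were called higher in GM at steady state on both dishes. With LPS both were called higher in GM on noTC dishes and neither was called between growth factors on TC dishes. They belong to a list of 9 partner and metal handling genes, of which 8 were tested and 3 rose in GM-TC (the third was the copper pump Atp7a) and 2 in each other LPS comparison.

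Of the 10 carriers of vitamins and heme, 1 rose and 4 fell in each GM comparison, and 2 rose and 3 fell in each M comparison. Over all genes tested, 13.4% rose and 12.7% fell in GM-TC, and 13.1% and 12.6% in GM-noTC. In M-TC these shares were 17.3% and 18.5%, and in M-noTC 15.9% and 16.3%. With 10 members the counts are descriptions. The vitamin C carrier Slc23a2 had 171.4 and 150.4 CPM without and 412 and 428 CPM with LPS in GM on TC dishes, against 159.4 and 163.2 CPM without and 749 and 762 CPM with LPS in M. It rose by 1.39 (SE 0.055) and 2.23 (SE 0.055). Lower with LPS were the thiamine carrier Slc19a2, by 1.43 to 2.12 on the log2 scale, Slc5a6, which carries biotin and pantothenate, by 1.44 to 2.34, and the lysosomal Slc46a3, by 1.56 to 2.52. Slc46a3 had 35.5 and 35.6 CPM without and 11.7 and 10.9 CPM with LPS in GM on TC dishes, against 58.7 and 56.7 CPM without and 10.6 and 9.47 CPM with LPS in M. The heme carrier Slc48a1 was not called (log2 fold change -0.73, SE 0.052, in GM-TC and -0.20, SE 0.052, in M-TC).

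The nucleoside carrier Slc28a2, which concentrates purine nucleosides with sodium, covered a 101-fold range of group means. GM cells held 1.67 and 2.13 CPM on TC and 4.12 and 3.84 CPM on noTC dishes, and with LPS 8.12 and 8.03 CPM (TC) and 6.06 and 7.85 CPM (noTC). M cells held 13.8 and 12.5 CPM (TC) and 18.2 and 16.9 CPM (noTC), and with LPS 193 and 192 CPM (TC) and 183 and 168 CPM (noTC). Every M library lay above every GM library. It rose with LPS by 3.87 (SE 0.082) in M-TC, 3.32 (SE 0.076) in M-noTC and 2.07 (SE 0.16) in GM-TC, and was at 0.81 (SE 0.14) in GM-noTC. The other 3 carriers of nucleosides and nucleobases, Slc29a1, Slc29a3 and Slc43a3, gave 1 call with LPS, of Slc43a3 in GM-TC.

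Where members moved together, the 250 bases upstream of their RefSeq starts (GRCm38.p6) were searched on both strands for 5 motifs. These were the kappa B site (GGGA, any 2 bases, TTCC), the interferon response element (GAAA, any 2 bases, GAAA), the AP-1 site TGANTCA, the cAMP response element TGACGTCA and the E-box CACGTG. RefSeq starts were at hand for 115 of the 155 members, 15 of the 17 that rose with LPS in all 4 comparisons and 7 of the 10 that fell. Among the 15, Slc25a22 held the interferon response element and Slc25a25 the cAMP response element, and none held the other 3. Among the 7, Slc36a1 held the E-box and Slc37a1 the interferon response element. Over all 115 members the E-box stood in 21 (18.3%), against 6.86% of 27025 genes, and the kappa B site in 3 (2.61%) against 1.36%. The shares were 2.61% against 3.46% for the interferon response element, 8.70% against 7.82% for the AP-1 site and 2.61% against 1.77% for the cAMP response element. The members were chosen for being expressed, while the 27025 genes were not, so these shares come from unlike sets and show no enrichment. A match is a string of letters, not a shown site. The stretches of 120 bases around these 4 matches are printed because they belong to members that moved in every LPS comparison, on the strand of the gene, with the motif in capitals. That of Slc36a1 lies on chromosome 11 (chr11:55204220-55204339, plus strand), that of Slc37a1 on chromosome 17 (chr17:31296084-31296203, plus strand), that of Slc25a22 on chromosome 7 (chr7:141435398-141435517, minus strand) and that of Slc25a25 on chromosome 2 (chr2:32424147-32424266, minus strand), each within 250 bases upstream of a RefSeq start. Slc25a22 and Slc25a25 have 3 such starts each, of which 1 carries the match.
Slc36a1: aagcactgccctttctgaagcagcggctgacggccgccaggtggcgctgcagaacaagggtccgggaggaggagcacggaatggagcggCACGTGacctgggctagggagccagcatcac
Slc37a1: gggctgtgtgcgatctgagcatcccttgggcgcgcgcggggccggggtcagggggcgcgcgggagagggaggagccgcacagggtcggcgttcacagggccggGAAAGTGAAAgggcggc
Slc25a22: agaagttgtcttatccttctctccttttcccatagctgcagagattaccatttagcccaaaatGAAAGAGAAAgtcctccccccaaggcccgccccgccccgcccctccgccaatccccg
Slc25a25: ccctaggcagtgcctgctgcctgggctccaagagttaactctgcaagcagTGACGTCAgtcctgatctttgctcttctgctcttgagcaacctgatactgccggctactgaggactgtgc

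Between growth factors at steady state, 21 members were called higher and 14 lower in GM-TC than in M-TC, beside 13.2% and 8.54% of all genes tested. On noTC dishes 17 were higher and 16 lower, beside 13.0% and 9.20%. With LPS, 22 were higher and 17 lower on TC dishes (beside 14.9% and 10.1%) and 20 and 18 on noTC dishes (beside 14.4% and 10.1%). With library size in place of TMM the higher and lower counts were 14 and 27 on TC and 14 and 22 on noTC dishes at steady state, where the median of all genes lay at -0.29 on both. The summed macrophage, neutrophil, mast cell and dendritic cell markers given above are higher in GM as well, and their part was not tested. Called in the same direction in all 4 comparisons were 12 members higher in GM (7.74%, against 7.80% of all genes) and 7 lower in GM (4.52%, against 4.14%). Of the 12, Slc36a2, Slc39a2, Slc27a6, Slc9a4, Slc18a1, Slc6a4, Slc6a13 and Slc52a3 reached the limit through the GM libraries alone. Being higher in GM was thus required of them, and the share is a description.

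**Figure D4:**
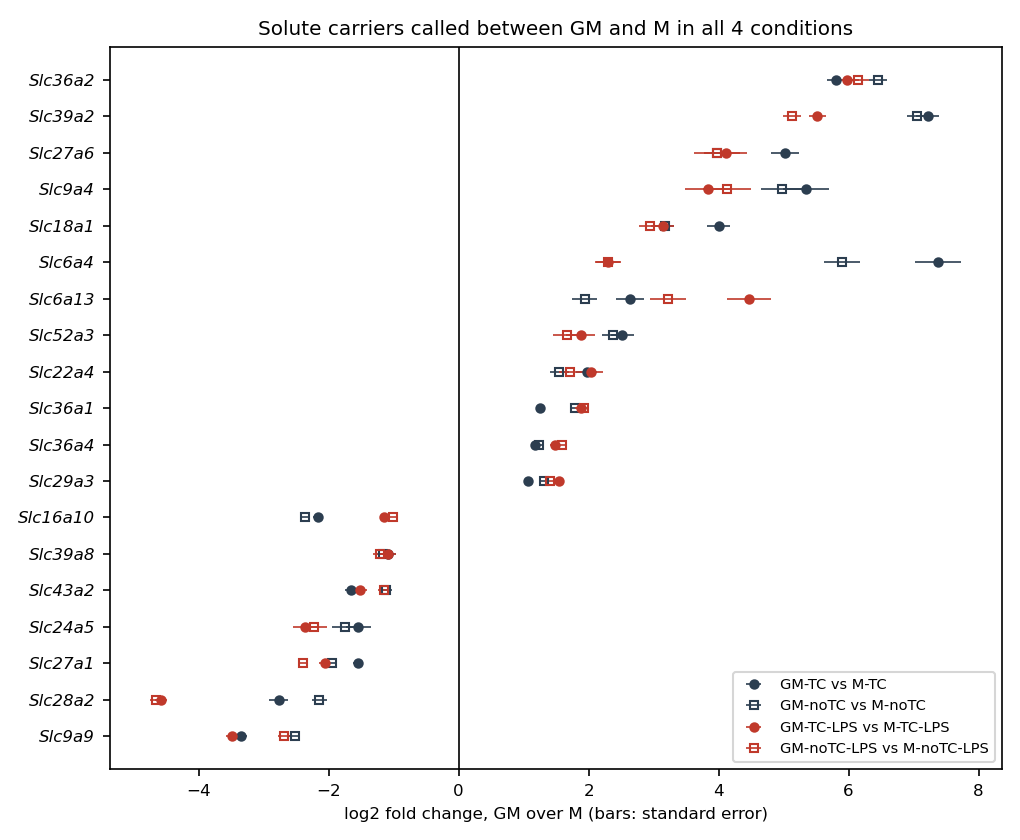
Log2 fold change of GM over M with its standard error for the 19 members called in all 4 comparisons of growth factors, without LPS (dark) and with LPS (red), on TC (filled circles) and noTC dishes (open squares). Slc36a2 and Slc39a2 lie above 5 in every comparison, and Slc6a4 is at 7.38 and 5.90 without LPS and at 2.30 with LPS on both dishes.

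The amino acid carrier Slc36a2 was higher in GM cells in all 4 comparisons, and the GM libraries alone brought it over the limit. It had 38.1 and 37.7 CPM in GM cells on TC and 43.0 and 39.9 CPM on noTC dishes, and after LPS 21.0 and 23.4 CPM (TC) and 27.2 and 27.1 CPM (noTC). In M cells all 8 libraries lay under 1 CPM, with 0.678 and 0.674 in M-TC and 0.345 and 0.349 in M-TC-LPS. The log2 difference lay between 5.80 (SE 0.14) and 6.45 (SE 0.13) in the 4 comparisons, and its relatives Slc36a1 (1.25 to 1.93) and Slc36a4 (1.18 to 1.59) were also called in each.

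The zinc importer Slc39a2 had 31.1 and 33.6 CPM without and 50.7 and 50.2 CPM with LPS in GM on TC dishes, against 0.279 and 0.150 CPM without and 1.23 and 0.930 CPM with LPS in M. The log2 difference was 7.22 (SE 0.18) at steady state and 5.52 (SE 0.14) with LPS, a description, since the GM libraries alone brought it over the limit. Its LPS response in M-TC, 2.33 (SE 0.38, adjusted p = 1.0e-05 from edgeR), thus began from a low level. In the other direction the zinc and manganese importer Slc39a8 was lower in GM, with 6.31 and 6.69 CPM in GM-TC against 12.9 and 14.6 in M-TC, by 1.08 to 1.21 on the log2 scale. Between GM-TC-LPS and M-TC-LPS it was at -0.94 without GM-TC-LPS replicate 2, short of 2-fold.

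Of the 13 carriers of carboxylates and other organic ions, 4 were higher and 2 lower in GM-TC than in M-TC (beside 13.2% and 8.54% of all genes). Slc6a4 and Slc18a1 among them reached the limit through the GM libraries alone, so their differences are descriptions. The serotonin carrier Slc6a4 had 10.8 and 10.4 CPM in GM cells on TC and 8.97 and 9.68 CPM on noTC dishes, and after LPS 11.7 and 11.98 CPM (TC) and 11.2 and 13.0 CPM (noTC). M libraries had 3 and 0 counts on TC and 0.101 and 0.186 CPM on noTC dishes, and after LPS 2.02 and 2.85 CPM (TC) and 2.11 and 2.79 CPM (noTC). Its log2 fold change with LPS was 0.17 in GM-TC (SE 0.15, adjusted p = 0.34 from edgeR), while M-TC-LPS held 41.4 times M-TC by pooled counts (13.7 to 205). GM-TC held 182 times M-TC (61.8 to 885). The vesicular monoamine carrier Slc18a1 had 18.2 and 17.3 CPM in GM-TC against 1.28 and 0.935 in M-TC (log2 difference 4.0, SE 0.17), and Slc22a4, which carries ergothioneine, was higher by 1.55 to 2.04.

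Carriers of lipids and osmolytes split, and Slc27a6 and Slc6a13 among them reached the limit through the GM libraries alone. The fatty acid carrier Slc27a6 had 22.3 and 23.2 CPM without and 5.22 and 5.11 CPM with LPS in GM on TC dishes, against 0.957 and 0.449 CPM without and 0.246 and 0.349 CPM with LPS in M. Its relative Slc27a1 had the opposite order, with 30.1 and 31.1 CPM in GM-TC against 91.3 and 88.2 in M-TC, and 18.2 and 15.6 in GM-TC-LPS against 70.6 and 69.9 in M-TC-LPS. The log2 differences on TC dishes at steady state were 5.02 (SE 0.21) and -1.55 (SE 0.071). Slc6a13, a carrier of GABA and taurine, was higher in GM by 1.94 to 4.47 on the log2 scale. Of its neighbours in the same family, Slc6a12 was called higher with LPS only (1.48, SE 0.074, on TC, against 0.93, SE 0.073, at steady state), and the creatine carrier Slc6a8 was not called (0.73, SE 0.061).

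Sodium proton exchangers also split. Slc9a9, of endosomes, had 7.68 and 5.96 CPM in GM cells on TC and 7.75 and 7.54 CPM on noTC dishes, and after LPS 6.21 and 6.22 CPM (TC) and 6.82 and 6.57 CPM (noTC). M libraries had 66.9 and 70.3 CPM on TC and 44.1 and 43.6 CPM on noTC dishes, and after LPS 71.5 and 67.5 CPM (TC) and 44.6 and 41.9 CPM (noTC). The log2 fold changes with LPS on TC were -0.12 in GM (adjusted p = 0.42 from edgeR) and 0.02 in M (adjusted p = 0.82), and GM was lower by 2.52 to 3.48. Slc9a4 had 5.66 and 5.72 CPM in GM-TC against 0.120 and 0.150 in M-TC (log2 difference 5.34, SE 0.35), and the GM libraries alone brought it over the limit. The potassium dependent sodium calcium exchanger Slc24a5 was lower in GM by 1.54 to 2.36.

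Equilibrative nucleoside carriers were higher in GM, opposite to Slc28a2. Slc29a3, of lysosomes and mitochondria, had 209 and 197 CPM without and 162 and 148 CPM with LPS in GM on TC dishes, against 95.3 and 98.1 CPM without and 54.1 and 51.8 CPM with LPS in M, and was called in all 4 comparisons (1.07 to 1.55). Slc29a1, of the plasma membrane, was called in 3 of them, with 1.38 (SE 0.076) on TC dishes. The sugar phosphate carrier Slc37a2 was lower in GM at steady state (104 and 99.4 CPM in GM-TC against 241 and 243 in M-TC, log2 difference -1.25, SE 0.050) and not called with LPS (-0.62, SE 0.054). Slc1a5 was higher in GM on TC dishes, by 1.37 (SE 0.069) at steady state and 1.31 (SE 0.077) with LPS. Slc12a9 was lower in GM with LPS, with 7.34 and 6.41 CPM in GM-TC-LPS against 47.1 and 38.7 in M-TC-LPS (-2.65, SE 0.14). Its group means at steady state already differed, at 10.2 CPM in GM-TC and 21.6 CPM in M-TC (interaction on TC -1.56, SE 0.19). The phosphate carrier Slc20a1 was called higher in GM with LPS on noTC dishes, with 92.5 and 87.1 CPM in GM-noTC-LPS against 43.4 and 39.3 in M-noTC-LPS (1.12, SE 0.062).

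The LPS response itself differed between growth factors for 77 members on TC and 67 on noTC dishes (tested as an interaction at an adjusted p under 0.05 from edgeR, beside 41.1% and 36.2% of all genes tested). Of the 77, 50 (64.9%, beside 61.5% of all genes with a called interaction) had the same sign in both cells with the larger value in M, 11 (14.3%, beside 15.6%) the same sign with the larger value in GM, and 16 (20.8%, beside 22.9%) opposite signs, whether or not each response was called. On noTC dishes these numbers were 40, 14 and 13 of 67 (59.7%, 20.9% and 19.4%, beside 56.4%, 19.3% and 24.3%). The members thus divided much as all genes did. On both dishes 55 members were called, and the share of all genes called on both was not counted. These counts, and those of interactions among metal carriers, rest on TMM scaling. With library size the median of all genes lay lower in M (-0.83 on TC, -0.73 on noTC) than in GM (-0.53 and -0.54). Small interactions, and which growth factor has the larger value, can therefore depend on the scaling.

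**Figure D5:**
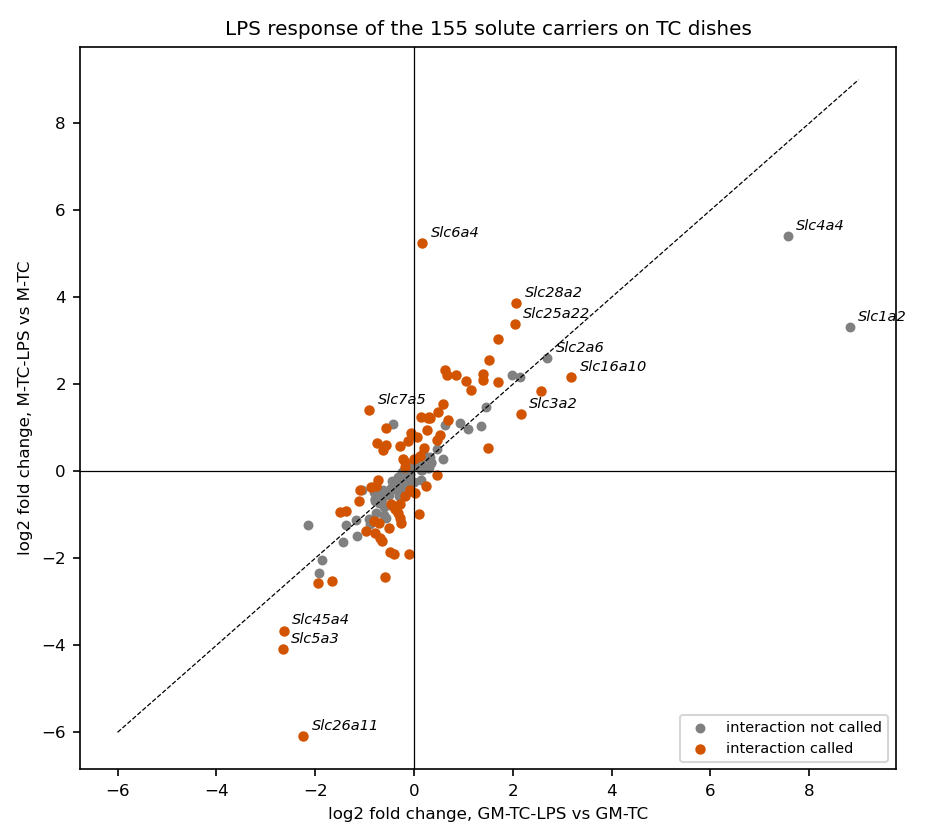
Log2 fold change with LPS of the 155 members in GM-TC (x axis) and M-TC (y axis), in orange where the interaction of growth factor and LPS was called (77 members) and in grey where it was not, with the line of equal change dashed. Slc6a4 lies at 5.25 in M and 0.17 in GM, Slc26a11 at -6.09 and -2.24, and Slc7a5 at 1.40 and -0.90.

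The dish changed few members. Between GM-noTC and GM-TC 1 member was called higher and 0 lower by edgeR, beside 0.943% and 0.447% of all genes tested (at an unadjusted p 1 was lower, by DESeq2 0, and by edgeR without GM-TC replicate 1 it was 1), and between M-noTC and M-TC 2 were higher and 1 lower (2 lower without M-noTC replicate 2), beside 2.17% and 1.29%. With LPS the counts were 0 and 0 in GM by edgeR (beside 0.176% and 0.120%), also 0 and 0 at an unadjusted p and by DESeq2, with 1 higher without GM-TC-LPS replicate 2 and 1 without GM-noTC-LPS replicate 1. In M with LPS 2 were higher and 0 lower by edgeR (beside 1.17% and 0.647%), and 0 were lower at an unadjusted p and by DESeq2 too. At an adjusted p alone, without a fold limit, 62 members (40.0%, beside 27.2% of all genes) differed between M-noTC and M-TC and 11 (7.10%, beside 7.54%) between GM-noTC and GM-TC. The TC steady state libraries are those with heart muscle markers, whose part was not tested.

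The member called in GM cells was Slc28a2, with the values given above (log2 fold change 1.04, SE 0.18, adjusted p = 0.00062 from edgeR). In genes nearly absent from the TC steady state libraries, the noTC ones held a small share of the level in the 10 libraries of the other states, put at 0.675% in GM from 15 genes and 0.600% in M from 19 genes. What this share comes from was not tested. The gain of Slc28a2 in GM-noTC was 3.53% of its level in those 10 libraries. After subtraction of that share the log2 fold change was 0.90 and no longer called. It was 0.90 without GM-TC replicate 1 and 0.99 without GM-noTC replicate 1, also short of 2-fold.

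In M cells Slc7a5 was higher on noTC dishes at steady state, by 1.05 (SE 0.10, adjusted p = 6.4e-08 from edgeR), and by 0.96 without M-TC replicate 1. The sodium calcium exchanger Slc24a3 had 1.56 and 1.68 CPM in M cells on TC and 4.28 and 4.04 CPM on noTC dishes, and after LPS 2.07 and 2.56 CPM (TC) and 6.78 and 5.79 CPM (noTC). It was higher on noTC dishes by 1.35 (SE 0.21) without and 1.45 (SE 0.21) with LPS. Slc26a11 was lower in M-noTC than in M-TC by 1.29 on the log2 scale (a log2 fold change of -1.29, SE 0.13, adjusted p = 7.8e-08 from edgeR). The neutral amino acid carrier Slc1a4 had after LPS 1.97 and 1.22 CPM on TC and 3.75 and 3.59 CPM on noTC dishes (log2 fold change 1.18, SE 0.30, adjusted p = 0.0069 from edgeR), and 0.90 without M-TC-LPS replicate 2. With a mean of 2.35 CPM, Slc1a4 lay just inside the 2 CPM limit. Its higher values on noTC dishes in M helped it to be included, so this difference is a description.

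The LPS response differed between dishes for 2 members in GM and 23 in M (beside 0.783% and 10.6% of all genes tested). Of the 23 in M, 20 had the same sign on both dishes with the larger value on TC (87.0%, beside 69.6% of all genes with a called interaction) and 3 with the larger value on noTC dishes (13.0%, beside 16.8%). Among them Slc25a25 rose by 2.21 on TC and 1.34 on noTC dishes and Slc25a22 by 3.38 and 2.60. In GM they were Slc28a2 and Slc7a8, whose differences were -1.26 (SE 0.22) and -0.345 (SE 0.077). After the subtraction described for Slc28a2 these were -1.11 and -0.33 and neither was called. Slc7a8 was also not called without any 1 of 6 of the GM libraries, all but GM-TC replicate 1 and GM-noTC-LPS replicate 2. With 1 library left out the number called in GM was 7 without GM-TC replicate 1, 3 without GM-TC replicate 2, 2 without GM-noTC-LPS replicate 2 and 1 without any of the others. In M it was 18 without replicate 2 of M-TC-LPS or of M-noTC-LPS and 10 to 13 without any of the other 6.

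Transport genes named outside the numbered families moved in part alongside. Of 19 such genes 15 were tested. Slco3a1, an organic anion carrier, rose in all 4 LPS comparisons, by 4.16 (SE 0.081) in GM-TC and 4.18 (SE 0.078) in M-TC, and the lysosomal cystine exporter Ctns fell (log2 fold changes -1.20, SE 0.086, and -1.95, SE 0.095). In all, 2 rose and 5 fell in GM-TC and 3 rose and 5 fell in M-TC, and 6 were higher in GM-TC than in M-TC (shares of all genes higher and lower are 13.4% and 12.7% in GM-TC, 17.3% and 18.5% in M-TC, and 13.2% higher between GM-TC and M-TC). Of 16 genes that sense amino acids at the lysosome all 16 were tested. Lower with LPS in M cells were 9 on TC and 8 on noTC dishes (median log2 fold changes -1.05 and -0.94, beside 18.5% and 16.3% of all genes lower), and in GM cells 5 on TC and 6 on noTC dishes (-0.32 and -0.38, beside 12.7% and 12.6%). Among them the leucine sensor Sesn2 had log2 fold changes of -1.25 (SE 0.091) in GM-TC and -1.78 (SE 0.11) in M-TC.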

How the data were processed

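Total RNA was extracted from 16 samples (2 per group), mRNA was enriched with oligo(dT) and sequenced, and the authors deposited estimated counts per gene with values that need not be whole (6.56% to 8.19% of genes per library were not); these expected counts were rounded here. Processing notes of the submitters name fastp 0.18.0, Bowtie2 2.2.8, HISAT2, StringTie 1.3.1 and RSEM; the genome build is not given in the sources used here.

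All 16 libraries entered 1 edgeR 4.0.16 fit (R 4.3.3; TMM factors 1.11 to 1.39 at steady state and 0.778 to 0.841 with LPS, filterByExpr, quasi-likelihood test, 8 group means). P-values were adjusted by Benjamini-Hochberg over 12514 genes. Interactions were called at an adjusted p under 0.05 without a fold limit. On simulated data 188 of 200 changed genes, and 1 unchanged gene, were called among 12098 for GM-TC-LPS against GM-TC. The simulation gave every gene the same dispersion and changed only those 200 genes. It therefore does not give the error rate under the replicate spread and scaling shift of the real libraries. Replicate pairs differed beyond counting noise (chi-square per degree of freedom 1.92 to 12.9, highest in GM-TC). The labels do not say whether replicates came from separate mice or cultures, so p-values measure the spread between these samples only. The main fit did not pair samples across groups by replicate number.

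Members, classes and lists were chosen with earlier results of these data known. Named are up to 3 members per direction and comparison with the largest called change, the 2 of each class with the highest level per kilobase (exon lengths from GENCODE M21), up to 6 per direction called in all 4 LPS or growth factor comparisons, up to 3 per interaction, a list of known carriers and the neighbours of the 2 CPM limit. A member that this rule selects is not reported here. Further members were named as examples of their class after their values were seen. Fitted changes of genes with few counts in a group depend on edgeR's prior count, so ratios of pooled counts with exact 95% intervals, for counting error only, are given for them. Alternatives were library size scaling, DESeq2 1.42.0 and its size factors, no filter, fits to the compared libraries only, unadjusted p, a replicate block, leaving out each replicate and subtraction of a shared read share, the last for single members chosen after seeing the data.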

Additional observations from a re-analysis of the deposited data

Results flagged for a closer look

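These members were singled out because the test of a difference between LPS responses passed at an adjusted p under 0.05 from edgeR and they were the most extreme in it. Between growth factors on TC dishes (response in GM minus response in M, log2) they were Slc6a4 at -5.09, Slc26a11 at 3.85 and Slc7a5 at -2.31. On noTC dishes they were Slc1a2 at 5.97, Slc6a4 at -3.60 and Slc28a2 at -2.52. Slc1a2 and Slc6a4 held 0 to 8 counts per library in the M groups without LPS, so the size of their fitted differences depends on the prior count. Slc1a2, Slc6a4 and Slc26a11 passed the 2 CPM limit only through the libraries where they are high, so their values are descriptions.

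Between dishes (response on noTC minus response on TC) the members were Slc28a2 at -1.26 and Slc7a8 at -0.345 in GM, and Slc25a25 at -0.875, Slc37a4 at 0.837 and Slc25a22 at -0.777 in M. Slc37a4, the glucose-6-phosphate carrier of the endoplasmic reticulum, had 6.10 and 6.06 CPM on TC and 5.22 and 5.74 CPM on noTC dishes in M cells, and after LPS 2.17 and 2.15 CPM (TC) and 3.59 and 3.39 CPM (noTC). It was not called by DESeq2 (0.84) or without any 1 of the 8 M libraries.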

How the results depend on the processing

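No named log2 fold change that was called turned sign under any alternative run, but a called change exceeds the shift that the scaling gives. Changes that were not called did turn. With library size scaling they were, for LPS in GM-TC, -0.48 (Slc6a6), -0.37 (Slc2a3), -0.28 (Slc25a3) and -0.31 (Slc6a4), in M-TC -0.71 (Slc6a6), -0.55 (Slc25a5), -0.29 (Slc25a3) and -0.81 (Slc9a9), and 0.031 for Slc25a37 between GM-TC-LPS and M-TC-LPS. Slc25a5 in GM-TC was 0.0064 by DESeq2. With 1 replicate left out, values close to 0 turned as well, with ranges in GM-TC of -0.0999 to 0.122 (Slc6a6), -0.114 to 0.284 (Slc2a3), -0.0764 to 0.0952 (Slc25a5) and -0.305 to 0.0751 (Slc9a9), in M-TC of -0.0254 to 0.0586 (Slc9a9), and between the LPS groups of -0.0307 to 0.026 (Slc25a37). With library size scaling, the number of members called lower with LPS was 78 (M-TC), 65 (M-noTC), 49 (GM-TC) and 50 (GM-noTC), and the number higher was 20 (M-TC), 16 (M-noTC) and 11 (GM-noTC). The number lower in GM-TC than in M-TC became 27. The median of all genes shifts under that scaling, as given with the LPS counts. Between GM-noTC and GM-TC, 0 members were higher after the subtraction described for Slc28a2. Without an expression filter 1 was lower, and 1 at an unadjusted p. The interaction of dish and LPS in GM called 0 members in a fit of its 8 libraries, 0 after subtraction and 23 at an unadjusted p. In M it called 15 by DESeq2 and 45 at an unadjusted p.

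With 1 replicate left out, the counts ranged from 0 to 1 higher and 0 to 1 lower for GM-noTC against GM-TC, from 1 to 2 lower for M-noTC against M-TC, from 0 to 1 higher for GM-noTC-LPS against GM-TC-LPS and from 1 to 2 higher for M-noTC-LPS against M-TC-LPS. The interaction of dish and LPS ranged from 1 to 7 in GM and from 10 to 18 in M. Among named values Slc39a8 lay at -0.94 between GM-TC-LPS and M-TC-LPS without GM-TC-LPS replicate 2, short of 2-fold, and Slc28a2 lost its interaction of dish and LPS after subtraction (-1.11), as did Slc7a8 (-0.33).

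With the replicate number as a block, 16 in place of 17 members were lower in GM-TC-LPS than in M-TC-LPS, the interaction of dish and LPS in M called 22 in place of 23, and no other count moved. Deviations of same-numbered libraries correlated at -0.0624 to 0.0199 over genes. This cannot show whether such libraries came from one mouse or batch. With 2 libraries per group, changes near 2-fold in members of a few CPM rest on few counts.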
